A study of Homo sapiens with 2 samples.

Results

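HAT1 encodes histone acetyltransferase 1, the enzyme that acetylates newly made histone H4 at its lysines 5 and 12 before the histone is placed on DNA. HAT1 works with RBBP7, a WD-repeat protein that holds histone H4, and hands H3-H4 dimers on to chaperones such as NASP and ASF1 and to importins that carry them into the nucleus. The cells described here were A549 lung adenocarcinoma cells that received a gRNA against HAT1, set against cells of the same pool that received a non-targeting gRNA. A gRNA was called in a cell at more than 3 gRNA UMIs, and cells with exactly 1 called gRNA were kept, which gave 185 HAT1 gRNA cells and 696 non-targeting cells of 5744 cells in all.

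Both groups came from 1 culture of A549-TetOn-Cas9 cells, which carry a Cas9 gene switched on by doxycycline. A lentiviral pool of 120 gRNAs was delivered at an MOI of 0.3; after puromycin selection Cas9 was induced over 2 days, and harvest followed 5 days later. HAT1 gRNA cells and non-targeting cells thus shared the line, Cas9, the vector, the drugs and the timing, and by design differed in the gRNA alone. Non-targeting gRNAs have no designed site in the genome, so the groups were not matched for a Cas9 cut as such, and its part was not tested. Transcriptome and gRNA were read from 1 library each (10x Genomics 3′ chemistry), so gRNAs stood in for replicates, and each p-value measures the spread between gRNAs within 1 culture, not between cultures. No edit and no protein was measured in the values used, and cells with 1 gRNA can hold edited and unedited copies of HAT1.

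The 4 HAT1 gRNAs fell in coding exons of HAT1, which spans chromosome 2 from 171922448 to 171983686 on the plus strand of GRCh38 and has 11 exons and a coding length of 1257 bases. HAT1_gRNA1 matched exon 2 (bases 171925562 to 171925581), with 3.9% of the coding sequence before the cut. HAT1_gRNA2 matched exon 5 (171965467 to 171965486), with 36.2% before it. HAT1_gRNA3 matched exon 7 (171966506 to 171966525) and HAT1_gRNA4 exon 8 (171966882 to 171966901), with 56.6% and 60.4% of the coding sequence before their cuts. Each had 1 exact match followed by an NGG motif in the main chromosomes.

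The gRNAs were found in unequal numbers of cells. HAT1_gRNA1 was called in 63 cells, HAT1_gRNA2 in 7, HAT1_gRNA3 in 51 and HAT1_gRNA4 in 64. HAT1_gRNA2 was below the minimum of 10 cells and entered no fit, so its values are given as a description. The comparison therefore set 3 HAT1 gRNAs (178 cells) against 15 non-targeting gRNAs (677 cells, 13 to 134 cells each). By UMI count the call was rarely close: 4 of the 185 cells were called at 4 or 5 UMIs, and 24 cells held 2 or 3 UMIs of a HAT1 gRNA with no gRNA called. The median of gRNA UMIs among the called cells was between 45 and 64 for the 4 HAT1 gRNAs. The gRNA counts came from Cell Ranger, which the study reports to accept gRNAs with a mismatched base as intact. The study also reports that Cell Ranger missed mutant gRNAs, and that these appeared dysfunctional. Some of the 185 cells may thus hold a mutant gRNA or a further, undetected gRNA. The part of such cells in the results that follow was not tested.

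HAT1 gRNA cells held 7263349 transcriptome UMIs and non-targeting cells 25154674. The median per cell was 36056 UMIs with HAT1_gRNA1, 41635 with HAT1_gRNA3 and 37365.5 with HAT1_gRNA4, against 25129 to 40842 (median 34037) over the non-targeting gRNAs. The mean of these medians was 38352 ± 2917 UMIs for HAT1 gRNAs (SD, n = 3) and 33810 ± 4144 UMIs for non-targeting gRNAs (SD, n = 15), a difference that did not pass an exact two-sided permutation test over gRNAs (p = 0.0784, 0.279 after Benjamini-Hochberg adjustment over 4 measures). Genes detected per cell averaged 5706 ± 229 and 5404 ± 358 (adjusted p = 0.279, exact permutation test), and the mitochondrial share 12.4% ± 0.22 and 12.2% ± 0.52 (adjusted p = 0.716, exact permutation test), with HAT1 gRNAs given first (SD, n = 3 and 15). The part of the depth in the results that follow was not tested. Keratins KRT18 (6600.5 CPM in HAT1 gRNA cells, 7264 CPM in non-targeting cells) and KRT8 (2711.6 and 2903.7 CPM) marked both groups. The 10 markers of lung epithelium and A549 summed to 14089 CPM in HAT1 gRNA cells and 14955 CPM in non-targeting cells, and most of this was KRT18 and KRT8. Of these 10 markers, 5 had enough counts to be tested in the fit, and 1 had no UMI in either group. The 5 endothelial markers summed to 0.28 CPM in HAT1 gRNA cells and 0.16 CPM in non-targeting cells, the 9 immune and blood markers to 6.47 and 7.08 CPM, the 8 fibroblast markers to 10.3 and 8.55 CPM and the 6 markers of HEK293T, the usual packaging line, to 27.3 and 32.3 CPM. No UMI was seen in either group for 3 of the endothelial and 5 of the immune and blood markers.

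The targeted transcript was measured first. HAT1 stood at 40.4 CPM with HAT1_gRNA1 (95% exact Poisson interval 32.6 to 49.6, 92 UMIs), 34.3 CPM with HAT1_gRNA2 (16.5 to 63.2, 10 UMIs), 32.2 CPM with HAT1_gRNA3 (25.2 to 40.5, 73 UMIs) and 26.0 CPM with HAT1_gRNA4 (19.9 to 33.2, 63 UMIs). The 15 non-targeting gRNAs of the fit ran between 24.1 and 73.2 CPM, with a median of 30.9. Every HAT1 gRNA thus lay inside the range of the non-targeting gRNAs, HAT1_gRNA4 towards its low end and HAT1_gRNA1 above its median. The highest non-targeting value, 73.2 CPM, came from CTRL00673 with 17 cells and 47 UMIs. Intervals cover counting error only.

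**Figure D1:**
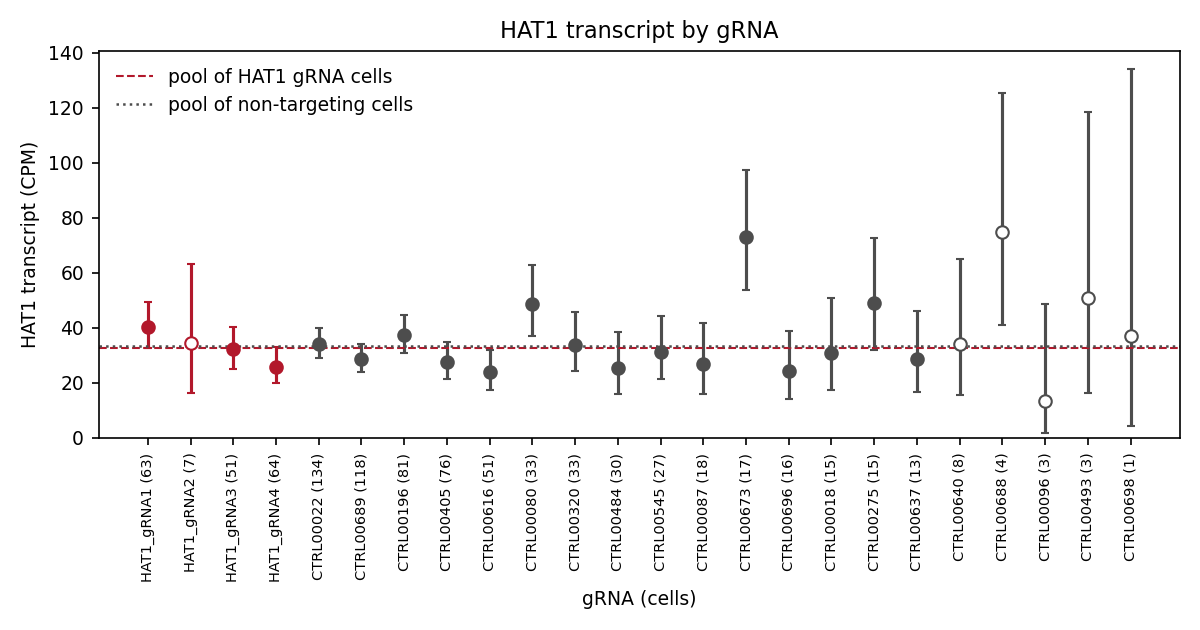
HAT1 transcript in CPM (vertical axis) for each gRNA (horizontal axis, cells in parentheses), HAT1 gRNAs in red on the left and non-targeting gRNAs in grey; bars are 95% exact Poisson intervals, and open circles mark gRNAs with fewer than 10 cells. The pools (lines) lie at 32.8 CPM for HAT1 gRNA cells and 33.4 CPM for non-targeting cells, and the 4 HAT1 gRNAs scatter around them.

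Over the pools, HAT1 stood at 32.8 CPM in HAT1 gRNA cells (28.7 to 37.2, 238 UMIs) and 33.4 CPM in non-targeting cells (31.2 to 35.7, 840 UMIs), a ratio of 98.1% (84.6 to 113%, counting error only). In edgeR's fit over all genes the log2 fold change was -0.04 (SE 0.18, 95% interval -0.40 to 0.32, unadjusted p = 0.831, adjusted p = 1), which corresponds to 97.4% of the non-targeting level with an interval of 75.7% to 125%. An exact permutation test over gRNAs of the difference in mean log2(CPM + 1) gave p = 0.993 over 816 assignments (two-sided). A lower HAT1 transcript was therefore not detected, and the interval reaches down to a loss of 24.3%. The study reports lower expression in aggregate for its more widely expressed target genes, tested over cells. Its text does not say whether HAT1 is among them, so that aggregate is not a value for HAT1 alone. The sign rested on single gRNAs: the log2 fold change was -0.21 without HAT1_gRNA1 and 0.10 without HAT1_gRNA4. Without CTRL00673, an alternative chosen after seeing the data, it was 0.02. Against the 65 gRNAs of the other 24 targets, HAT1 differed by 0.02 on the log2 scale (SE 0.14, 95% interval -0.26 to 0.29, unadjusted p = 0.905).

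The cell-level view was alike. At least 1 HAT1 UMI was seen in 106 of 185 HAT1 gRNA cells (57.3%, exact binomial interval 49.8 to 64.5%) and in 408 of 696 non-targeting cells (58.6%, 54.9 to 62.3%). After each cell was thinned to 10000 UMIs, which left out 12 HAT1 gRNA cells and 46 non-targeting cells, the shares were 28.9% (22.3 to 36.3%) and 27.2% (23.8 to 30.8%). By gRNA, the unthinned share was 61.9% with HAT1_gRNA1, 62.7% with HAT1_gRNA3 and 46.9% with HAT1_gRNA4. HAT1_gRNA4 was thus lowest here too, with an interval (34.3 to 59.8%) that includes the share of non-targeting cells. Binomial intervals take cells as independent and leave out the spread between gRNAs. Over the non-targeting gRNAs of the fit the share ran between 46.1% (CTRL00405) and 82.4% (CTRL00673). Among the 185 HAT1 gRNA cells, 79 held no HAT1 UMI, 49 held 1, 24 held 2 and 33 held 3 or more. The pool held 1 cell line, so no cell type that lacks HAT1 was at hand to set a background.

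Cells with a HAT1 gRNA and at least 1 other called gRNA were left out of the groups. There were 48 of them, with HAT1 at 23.3 CPM (17.1 to 31.1, 46 UMIs). Of these, 14 held HAT1_gRNA4 with RPL18_gRNA2, at 19.0 CPM (9.50 to 34.0, 11 UMIs), and the other combinations were found in 1 to 3 cells each. These cells hold several gRNAs at once, and no test was run on them.

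Across all genes, no gene passed the threshold between HAT1 gRNAs and non-targeting gRNAs. Of 9093 genes tested with edgeR's quasi-likelihood test, 0 were higher and 0 were lower at an adjusted p under 0.05 (0% in each direction), and the smallest adjusted p was 1.00. At an unadjusted p under 0.05 there were 151 higher genes (1.66%) and 131 lower genes (1.44%), together 282 (3.1%). That is below the share of 0.05 that evenly spread p-values would give. DESeq2 on the same sums also called 0, with 230 genes at an unadjusted p under 0.05, and limma voom with sample quality weights called 0 with 425. Against the gRNAs of the other 24 targets 0 of 9931 genes passed (0%), with 247 (2.49%) at an unadjusted p under 0.05; both comparisons share the HAT1 gRNAs.

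The fit bounded most differences. The median standard error of the log2 fold change was 0.15, and for 8900 of the 9093 genes (97.9%) the 95% interval lay wholly between -1 and 1, that is, within a doubling or a halving. The central 90% of the log2 fold changes ran between -0.29 and 0.27, with a median of 0.00. Beyond 1 in size lay a single gene, MUC5AC.

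**Figure D2:**
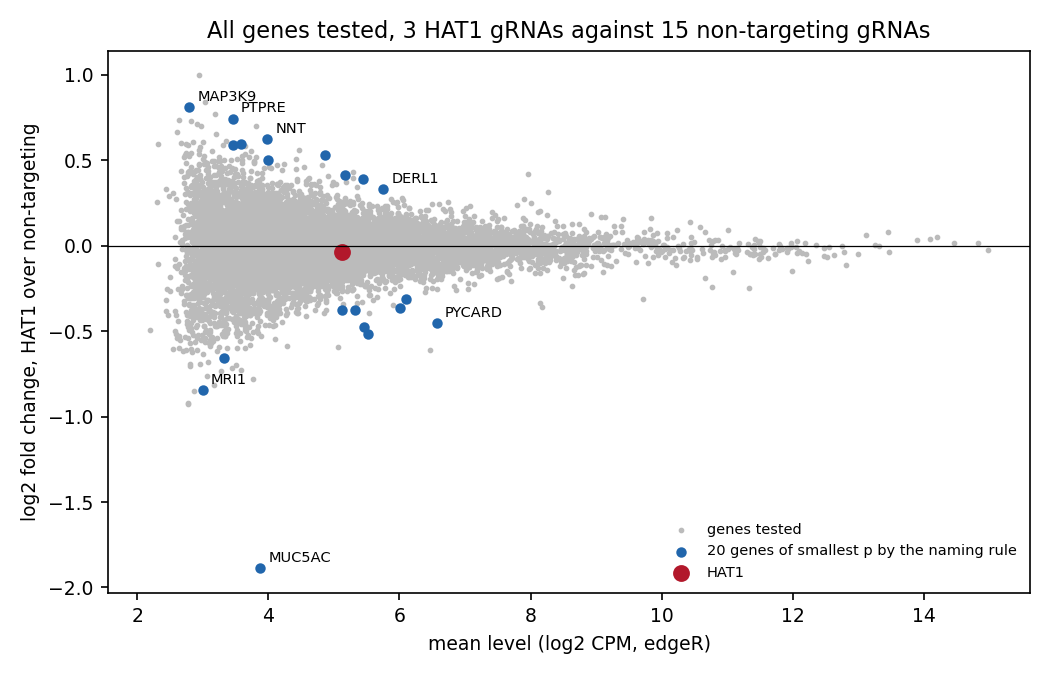
Log2 fold change of HAT1 gRNAs over non-targeting gRNAs (vertical axis) against mean level in log2 CPM (horizontal axis) for the 9093 genes tested (grey), with HAT1 in red and the 20 genes picked by p in blue. The cloud narrows with the level, HAT1 sits at -0.04 near the middle, and MUC5AC alone lies beyond 1 in size, at -1.89.

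Since no gene was called, the genes named next are those of smallest unadjusted p in each direction with at least 100 UMIs and all 3 HAT1 gRNAs on the same side of the non-targeting pool. Their choice used these values, so they are a description, and the adjusted p of each was 1.00. HAT1_gRNA2, with 7 cells and not in the fit, lay on the same side of the non-targeting pool for 13 of the 20 genes, 5 of the 10 higher and 8 of the 10 lower ones.

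NNT, the mitochondrial transhydrogenase that makes NADPH from NADH, had the smallest p. It stood at 19.8, 21.6 and 18.5 CPM with HAT1_gRNA1, HAT1_gRNA3 and HAT1_gRNA4, against 8.38 to 20.3 CPM (median 12.4) over the non-targeting gRNAs. HAT1_gRNA2 lay on the opposite side, at 6.87 CPM from 2 UMIs. The highest non-targeting gRNA lay above 2 of the 3 HAT1 gRNAs, so the groups overlapped. The log2 fold change was 0.62 (SE 0.16, unadjusted p = 0.000332), and NNT was seen in 51.4% of HAT1 gRNA cells and 33.6% of non-targeting cells. These shares were not thinned, and the HAT1 gRNA cells were deeper, at a median of 37305 UMIs against 33581.5. The part of depth in the 2 shares was not tested. DERL1, a channel component of the degradation of misfolded proteins of the endoplasmic reticulum, stood at 58.9, 61.7 and 65.9 CPM with HAT1_gRNA1, HAT1_gRNA3 and HAT1_gRNA4, against 40.7 to 56.6 CPM (median 48.3). Here the groups did not overlap, and the log2 fold change was 0.33 (SE 0.09, unadjusted p = 0.000839).

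Non-overlap was rare in general. The 3 HAT1 gRNAs lay above all 15 non-targeting gRNAs for 3 of the 9093 genes (0.033%) and below all of them for 0 (0%). Besides DERL1 these were BTBD1, with 13.2 to 14.4 CPM in HAT1 gRNAs and 6.91 to 12.7 CPM in non-targeting gRNAs, and HPS5, a lysosome-related organelle factor, with 15.8 to 16.5 CPM in HAT1 gRNAs and 7.04 to 15.7 CPM in non-targeting gRNAs. BTBD1 and HPS5 were named after their values were seen. Their log2 fold changes were 0.48 (SE 0.16) and 0.37 (SE 0.16).

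The other genes on the higher side had low to moderate levels. They were TULP4 (log2 fold change 0.60), the AMPK-related kinase NUAK2 (0.41), the JNK pathway kinase MAP3K9 (0.81), the Notch-linked repressor HES4 (0.39), the phosphatase PTPRE (0.74), the kinase PIM1 (0.50), the translation factor EIF5A2 (0.59) and GLIPR1 (0.53). HAT1_gRNA2 lay below the non-targeting pool for TULP4 (6.87 CPM), NUAK2 (20.6 CPM), MAP3K9 (3.43 CPM) and PIM1 (10.3 CPM). For these 8 genes the unadjusted p lay between 0.0015 and 0.0041. Set against the gRNAs of the other 24 targets, their log2 fold changes ran between 0.20 (GLIPR1) and 0.76 (MAP3K9). GLIPR1 was carried mostly by 1 gRNA, with 51.4 CPM for HAT1_gRNA1, 28.7 CPM for HAT1_gRNA3 and 29.2 CPM for HAT1_gRNA4, against a median of 25.1 CPM over the non-targeting gRNAs. MAP3K9 rested on 61 UMIs in HAT1 gRNA cells and 122 UMIs in non-targeting cells.

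On the lower side PYCARD, the adaptor ASC of inflammasomes, had the smallest p. It stood at 79.5, 59.5 and 77.0 CPM with HAT1_gRNA1, HAT1_gRNA3 and HAT1_gRNA4, against 68.6 to 133 CPM (median 90.4), so that only HAT1_gRNA3 lay below the non-targeting range. The log2 fold change was -0.45 (SE 0.13, unadjusted p = 0.00125). TRIM47, a ubiquitin ligase, stood at 50.9, 53.8 and 48.2 CPM against 50.3 to 90.7 CPM (median 66.3), with a log2 fold change of -0.37 (SE 0.11). The lipid droplet protein HILPDA (log2 fold change -0.52), COASY, which makes coenzyme A (-0.31), PAFAH1B2 (-0.38), the glucose-responsive partner MLX (-0.38), the galactosyltransferase B4GALT4 (-0.47), HOXA10 (-0.66) and the methionine salvage enzyme MRI1 (-0.85) followed, with unadjusted p between 0.0018 and 0.0057. HAT1_gRNA2 lay above the non-targeting pool for MLX (41.2 CPM) and MRI1 (10.3 CPM).

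MUC5AC, a secreted gel-forming mucin, showed the widest scatter. It stood at 9.66, 2.65 and 0.82 CPM with HAT1_gRNA1, HAT1_gRNA3 and HAT1_gRNA4, against 0 to 36.9 CPM (median 14.4) over the non-targeting gRNAs. Its 32 UMIs in HAT1 gRNA cells came from 12 cells, 17 of them from 1 cell, and its 397 UMIs in non-targeting cells from 137 of 696 cells, with 154 UMIs in the 10 richest cells. The log2 fold change was -1.89 (SE 0.56, unadjusted p = 0.00208). It was -3.19 without HAT1_gRNA1, -1.63 without HAT1_gRNA3 and -1.38 without HAT1_gRNA4. With the gRNAs of the other 24 targets as the reference it was -1.12.

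**Figure D3:**
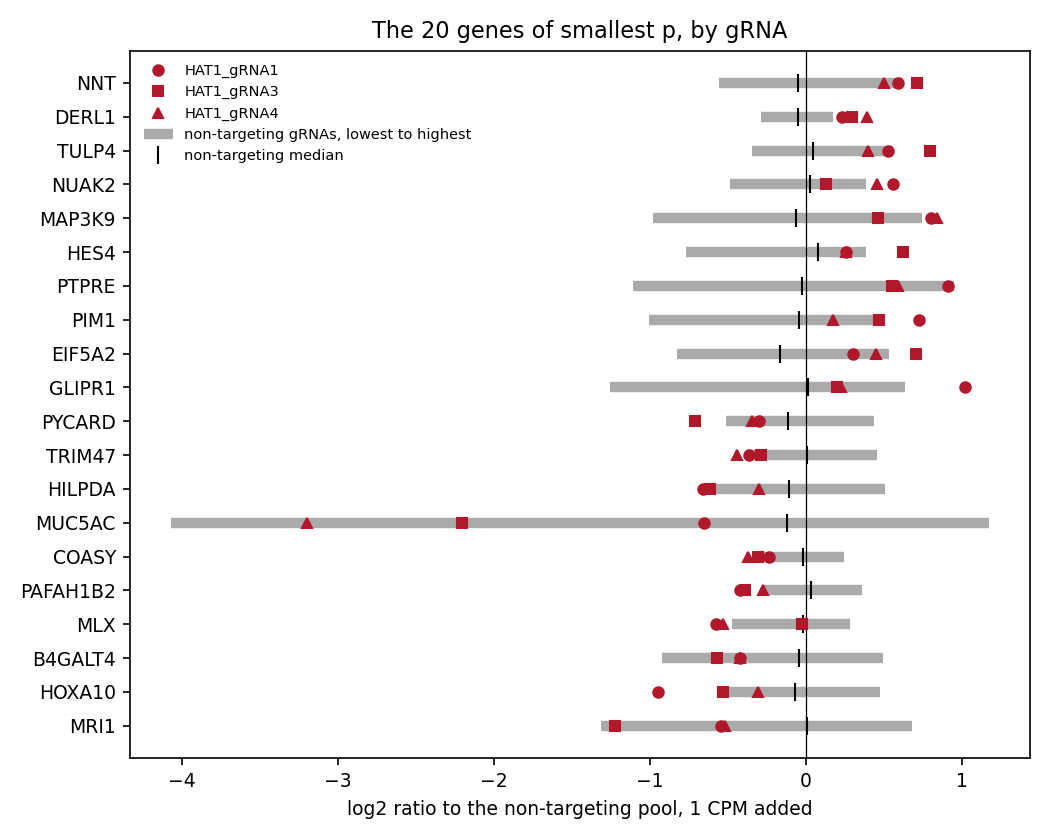
Log2 ratio of each HAT1 gRNA (red symbols) to the non-targeting pool, with 1 CPM added, for the 20 genes picked by p, over the span from the lowest to the highest of 15 non-targeting gRNAs (grey bars, median as a tick). All 3 HAT1 gRNAs clear the grey bar for DERL1 alone, and MUC5AC has the longest bar.

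The partners of HAT1 are the next group. All 25 members of the list of the HAT1 complex, H3-H4 chaperones and importins were tested, and 0 passed; 9 had positive and 16 negative log2 fold changes, between -0.25 and 0.38, with a median of -0.02 beside 0.00 over all genes. RBBP7, the direct partner, stood at 119, 106 and 127 CPM with HAT1_gRNA1, HAT1_gRNA3 and HAT1_gRNA4, against 102 to 162 CPM (median 119) over the non-targeting gRNAs, and its log2 fold change was -0.06 (95% interval -0.24 to 0.13). The smallest unadjusted p in the list was that of RBBP4, the paralog of RBBP7 found in many chromatin complexes, at -0.25 (SE 0.13). NASP, which keeps soluble H3-H4, was at -0.16 (SE 0.10), and TONSL, which reads new histone H4 behind the fork, at 0.38 (SE 0.23).

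Histone genes themselves were examined since histone H4 is the substrate. Of 82 histone genes in the files, 21 passed the filter on low counts and 0 of the 21 passed the test (8 positive, 13 negative, median -0.03). HIST1H4C, which encodes histone H4, stood at 1122, 1054 and 1045 CPM with HAT1_gRNA1, HAT1_gRNA3 and HAT1_gRNA4, against 519 to 1966 CPM (median 1124), with a log2 fold change of -0.04 (95% interval -0.45 to 0.37). The replacement histone genes H3F3A and H3F3B were at -0.03 (95% interval -0.15 to 0.09) and -0.06 (-0.18 to 0.05).

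Other enzymes of histone acetylation were read in the same fit. Of 31 acetyltransferases and partners, 26 were tested and 0 passed, with a median of 0.02; the smallest unadjusted p was that of KAT6A, at 0.30 (SE 0.15). KAT7, which also acetylates histone H4, was at 0.07 (95% interval -0.25 to 0.38). Of 18 deacetylases, 13 were tested and 0 passed, with a median of -0.15 that became 0.02 without HAT1_gRNA3. With 6 positive and 7 negative members, the median was the value of SIRT7, and the member just above it was HDAC2 at 0.02. By gRNA, the median log2 ratio to the non-targeting pool (1 CPM added) was 0.11, 0.01 and -0.09 with HAT1_gRNA1, HAT1_gRNA3 and HAT1_gRNA4. These lay inside the span of the non-targeting gRNAs (-0.19 to 0.20). HAT1_gRNA2, not in the fit, lay above that span at 0.24. HDAC6, a cytoplasmic tubulin deacetylase, was at 0.34 (SE 0.17). Of 20 bromodomain and YEATS readers, 18 were tested and 0 passed. At an unadjusted p under 0.05 there were 2 (11.1%, beside 3.1% over all genes), MLLT3 at 0.55 (SE 0.20) and BAZ2A at 0.26 (SE 0.12). Against the gRNAs of the other 24 targets, MLLT3 was at 0.17 and BAZ2A at 0.22. The 17 tested genes of acetyl-CoA supply had a median of -0.01 and 0 passed, ACLY, the cytosolic source of acetyl-CoA, being at 0.07 (95% interval -0.09 to 0.23).

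Replication and cell cycle genes were read with the same fit. Of 40 tested genes of S phase and DNA replication, 0 passed (13 positive, 27 negative, median -0.04). Of 51 G2/M genes 0 passed, with 38 positive and a median of 0.06, and their summed level differed widely between HAT1 gRNAs: 3571 CPM with HAT1_gRNA1, 4433 CPM with HAT1_gRNA3 and 2931 CPM with HAT1_gRNA4, against 2207 to 4885 CPM (median 3267) over the non-targeting gRNAs. HAT1_gRNA2, with 7 cells and not in the fit, lay below that range at 2161 CPM. The p53 targets had a median of 0.12 over 27 tested members, 20 of them positive, and 0 passed. Among the HAT1 gRNAs of the fit HAT1_gRNA3 stood highest, with a summed level of 2247 CPM above every non-targeting gRNA of the fit (1367 to 2211 CPM, median 1945). HAT1_gRNA1 (1999 CPM) and HAT1_gRNA4 (1965 CPM) lay inside that range. HAT1_gRNA2, not in the fit, lay above it at 2332 CPM. The member farthest from 0 was PPM1D, a phosphatase that dampens p53 signalling, at -0.45 (SE 0.24). Of the 27 members 2 had an unadjusted p under 0.05 (7.41%, beside 3.1% over all genes). TRIAP1, a p53-induced survival factor, was at 0.21 (SE 0.09, unadjusted p = 0.0293) and FDXR, ferredoxin reductase, at 0.23 (SE 0.11, unadjusted p = 0.035). None of the 24 tested genes of DNA damage checkpoint and repair passed, and their median was 0.02.

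Immune and stress lists gave some members of low unadjusted p and no call. HLA-B, a class I antigen-presenting molecule, stood at 28.1, 28.7 and 26.8 CPM with HAT1_gRNA1, HAT1_gRNA3 and HAT1_gRNA4, against 7.55 to 35.4 CPM (median 20.9), with a log2 fold change of 0.46 (SE 0.15, unadjusted p = 0.00518). The class I list as a whole had 11 tested members, 10 of them positive, and a median of 0.04. Among 15 tested NF-kB chemokines and cytokines, 2 higher and 1 lower had an unadjusted p under 0.05 (20%, beside 3.1% over all genes). CXCL1 (0.50, SE 0.22) and CCL2 (0.52, SE 0.23) were on the higher side and LCN2 (-0.59, SE 0.25) on the lower. For CXCL1 the HAT1 gRNAs were split, with HAT1_gRNA3 at 16.8 CPM, below the non-targeting pool at 18.0 CPM. Against the gRNAs of the other 24 targets, HLA-B was at 0.20, CXCL1 at 0.55, CCL2 at 0.31 and LCN2 at -0.66. Interferon-stimulated genes had a median of -0.03 over 18 tested members.

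Among NRF2 targets, which A549 cells express at high levels, 17 of 23 tested members had negative log2 fold changes and the median was -0.06; 0 passed. The 3 smallest p-values were those of aldo-keto reductases. AKR1C1 stood at 249, 239 and 210 CPM with HAT1_gRNA1, HAT1_gRNA3 and HAT1_gRNA4, against 197 to 470 CPM (median 283), with a log2 fold change of -0.36 (SE 0.12, unadjusted p = 0.00663). AKR1C2 was at -0.31 (SE 0.14) and AKR1B10 at -0.24 (SE 0.10). With the gRNAs of the other 24 targets as the reference, AKR1C1 was at -0.30, AKR1C2 at -0.30 and AKR1B10 at -0.16. AKR1C1 and AKR1C2 are near-identical copies whose reads can be hard to part, so they are not separate observations. The summed level of the list was 59859 CPM in HAT1 gRNA cells and 60357 CPM in non-targeting cells.

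The remaining lists, cholesterol synthesis, ATF4 and unfolded protein response, glycolysis and mitochondrially encoded mRNAs, had medians between -0.04 and 0.01, and 0 of their members passed. MVD of the mevalonate pathway, itself a target of the pool, was at 0.45 (SE 0.15, unadjusted p = 0.0042), with HAT1_gRNA2 on the opposite side at 10.3 CPM, and MTF2, a Polycomb partner that is also a target, at 0.36 (SE 0.15). Over the 24 other targeted genes 20 were tested, with a median of -0.07, and 0 passed. Their summed level was 5099 CPM with HAT1_gRNA3, below the lowest non-targeting gRNA (5301 to 5788 CPM), and 5590 and 5585 CPM with HAT1_gRNA1 and HAT1_gRNA4. Most of that sum is RPL18, a ribosomal protein gene, at 3777 CPM with HAT1_gRNA3, 4316 CPM with HAT1_gRNA1 and 4325 CPM with HAT1_gRNA4, against 4003 to 4457 CPM. The 7 tested genes with a start within 1 Mb of that of HAT1 had a median of -0.06, and the nearest of them, SLC25A12, was at -0.03 (95% interval -0.49 to 0.42).

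The list of cytosolic ribosomal proteins, which leaves out RPL18, showed HAT1_gRNA3 apart from the other 2 HAT1 gRNAs of the fit as well. The 84 tested members had a median of -0.02 and 0 passed, but their summed level was 191318 CPM with HAT1_gRNA3, below the lowest of the non-targeting gRNAs (201332 to 212653 CPM), while HAT1_gRNA1 (209872 CPM) and HAT1_gRNA4 (210463 CPM) lay inside that range. HAT1_gRNA2, with 7 cells and not in the fit, also lay below that range, at 197389 CPM. HAT1_gRNA3 had the deepest cells of the 3 HAT1 gRNAs of the fit, at a median of 41635 UMIs, while the median with HAT1_gRNA2 was 33319 UMIs. The part of depth in this was not tested. Without HAT1_gRNA3 the median of the list was 0.03.

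**Figure D4:**
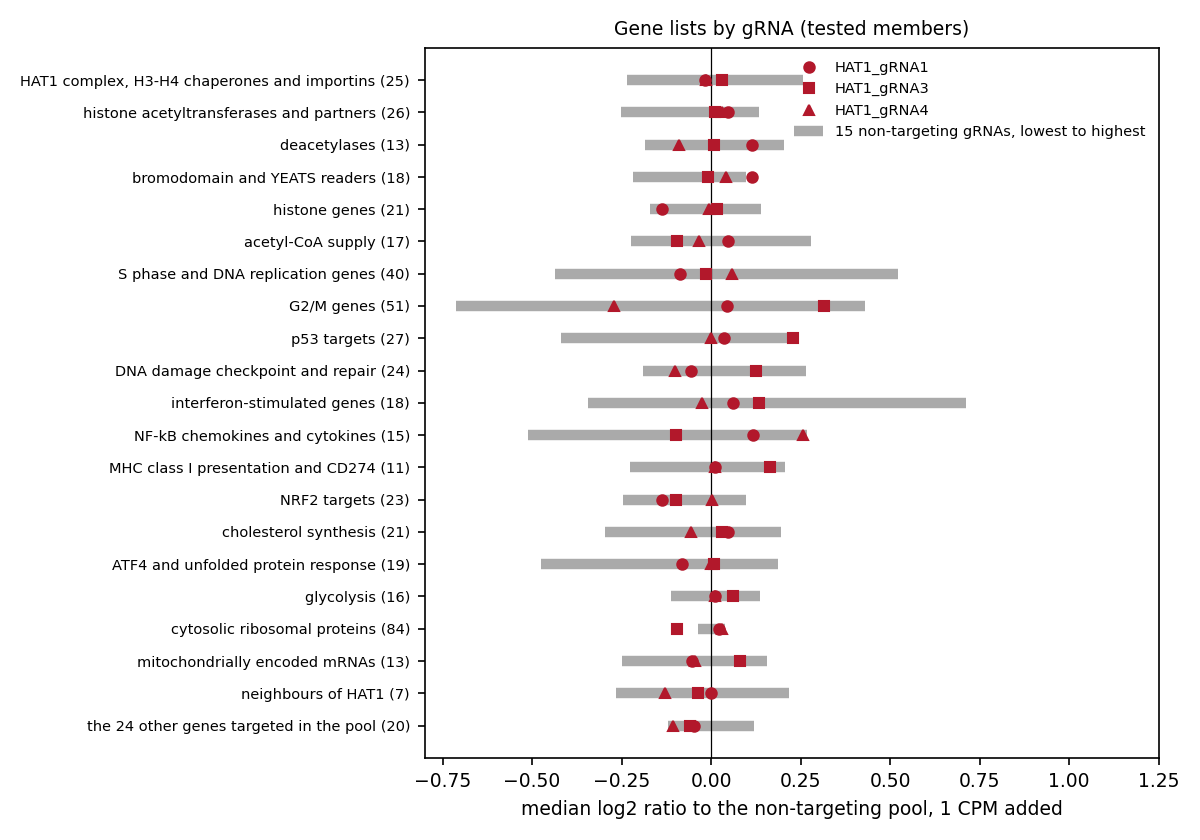
Median log2 ratio to the non-targeting pool over the tested members of each gene list (members in parentheses), with 1 CPM added, for the 3 HAT1 gRNAs (red symbols) and as the span of 15 non-targeting gRNAs (grey bars). HAT1_gRNA3 lies left of the bar for cytosolic ribosomal proteins and HAT1_gRNA1 just right of it for bromodomain and YEATS readers; the other symbols lie on the bars.

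The HAT1 gRNAs were last compared one by one with the non-targeting pool, by a rule chosen after values were seen: at least a 2-fold ratio, outside the range of the non-targeting gRNAs, and at least 20 UMIs observed or expected. HAT1_gRNA1 had 6 such genes, HAT1_gRNA3 had 11 and HAT1_gRNA4 had 10. Each non-targeting gRNA set against the others in the same way had 1 to 57 (median 19), so the counts of the HAT1 gRNAs lay inside the range of single non-targeting gRNAs, which include gRNAs with fewer cells. TDO2, which breaks down tryptophan, gave the largest ratio, at 14.99 CPM with HAT1_gRNA3 and 0.44 and 1.24 CPM with HAT1_gRNA1 and HAT1_gRNA4, against 1.43 CPM in the non-targeting pool. Of its 34 UMIs with HAT1_gRNA3, 24 came from 1 cell. SIRT1, a deacetylase, stood at 5.29 CPM with HAT1_gRNA3 (12 UMIs), against 13.1 CPM in the non-targeting pool. It stood at 14.5, 30.9 and 12.4 CPM with HAT1_gRNA1, HAT1_gRNA2 (9 UMIs) and HAT1_gRNA4. BUB1B, a mitotic checkpoint kinase, stood at 8.24 CPM with HAT1_gRNA4 (20 UMIs), against 19.0 CPM in the non-targeting pool. It stood at 24.2, 13.7 and 20.3 CPM with HAT1_gRNA1, HAT1_gRNA2 (4 UMIs) and HAT1_gRNA3. Neither gene had the largest ratio of its gRNA.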

How the data were processed

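One transcriptome library and one gRNA library of an A549 pool were used. The values are UMI counts as deposited: the authors ran Cell Ranger 3.1.0 (GRCh38) to collapse UMIs and call cells, and did not normalize them. All 5744 barcodes (median 34625 UMIs) were kept, and cells with several called gRNAs were left out as possible doublets. Repeated names of non-targeting gRNAs were replaced by their IDs. UMIs were summed per gRNA (at least 10 cells) and tested with edgeR 4.0.16 (TMM, filterByExpr, quasi-likelihood, Benjamini-Hochberg over all genes tested), with limma 3.58.1 and DESeq2 1.42.0 as alternatives, in R 4.3.3; scripts were tested on simulated data. The standard error is the size of the log2 fold change over the root of F, and its interval is approximate. CPM are scaled to 1000000 transcriptome UMIs of the gRNA or pool. Python 3.11.15 with NumPy 2.4.6, SciPy 1.17.1, pandas 2.3.3, scikit-learn 1.9.0 and matplotlib 3.10.9 did the rest. gRNA sites were found by exact match of the designed spacers, as transcribed from the pages of a supplement of the study, to GRCh38 with GENCODE exons; the letters are not printed. Named genes were HAT1, up to 10 called genes per direction by size, filled up by smallest p as described, and the 3 members of smallest p per list, of which those not printed are summarised by their lists. The members and lists were chosen with earlier results of these data known. Alternatives were other gRNA calls (more than 10 UMIs, a mixture model, 80% dominance), cells with at least 10000 UMIs, at least 5 or 20 cells per gRNA, no filter on low counts, and left-out gRNAs.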

Additional observations from a re-analysis of the deposited data

How the results depend on the processing

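No gene passed between HAT1 gRNAs and non-targeting gRNAs, or between HAT1 gRNAs and the gRNAs of the other targets, under each alternative run. The count at an unadjusted p under 0.05 was 282 and became 425 with limma voom and 673 without the filter on low counts, which tests 20101 genes, and leaving out a HAT1 gRNA gave 252 to 317. The log2 fold change of HAT1 of -0.04 turned to 0.0168 with gRNAs of at least 20 cells, to 0.0162 with limma voom and, as an alternative chosen after seeing the data, to 0.0216 without CTRL00673, and ran between -0.21 and 0.10 when a HAT1 gRNA was left out; the cause was not tested. The 20 named genes were chosen for agreement of the 3 HAT1 gRNAs in direction, so their direction under alternatives says nothing about stability. List medians moved by more than the spread between non-targeting gRNAs in 3 of 84 cases. No paired analysis was possible because the labels give gRNAs of different groups no shared replicate number that marks a pair. The depth is limited by 3 HAT1 gRNAs of 51 to 64 cells in 1 culture.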
